A study of Drosophila melanogaster with 4 samples.

Results

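The mRNA-seq of ovarian somatic cells (OSCs) with Mi-2 knocked down was set directly against that with Piwi knocked down, as the ratio of siMi-2 to sipiwi without the control in it, to describe what separates loss of the remodeler from loss of Piwi. OSCs are a cultured line of the somatic cells that surround the germ cells in the Drosophila melanogaster ovary. The cells were grown at 26 °C and sequenced 4 days after transfection with siRNA against Mi-2 (siMi-2) or piwi (sipiwi). In the other libraries of the series the siRNA was directed against Rpd3 (siRpd3) or, as the control, against GFP (siGFP; the sample labels call it EGFP). The series holds 4 libraries of poly(A) RNA, with 1 library per condition of a single cell line, so that no difference given here has a replicate check. Of the 16757 genes listed, the 7947 whose FPKM averaged at least 1 over the 4 libraries were compared, and of the 121 transposable elements (TEs) the 100 that averaged at least 0.1. FPKM is the read count of a transcript divided by its length and by the depth of the library, so that levels of different genes are per length.

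Piwi is a nuclear Argonaute protein that is guided by piRNAs to nascent TE transcripts, where it brings about trimethylation of histone H3 on lysine 9 (H3K9me3) and transcriptional silencing. In ovarian somatic cells its best known targets are LTR retrotransposons of the gypsy group, whose piRNAs come from the flamenco locus. Mi-2 is a nucleosome remodeling ATPase of the CHD family, found in the dNuRD complex together with the histone deacetylase Rpd3 and in the dMec complex together with the zinc-finger protein MEP-1, and it also acts at many genes that no piRNA targets.

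The libraries held between 32638866 and 38060116 mapped reads, and TEs took between 2.49% and 6.29% of them. The RNA of Mi-2 was at 5.67 FPKM in siMi-2, 69.3 in sipiwi, 83.6 in the library labelled siRpd3 and 34.4 in siGFP. That of piwi was at 104 FPKM in siMi-2, 38.9 in sipiwi, 84.6 in the library labelled siRpd3 and 73.5 in siGFP. Each was lowest in the library of its own siRNA, and for both genes siGFP lay between the knockdowns compared. Rpd3, listed as HDAC1, was at 54.7 FPKM in siMi-2, 109 in sipiwi, 104 in the library labelled siRpd3 and 71.3 in siGFP, so that its RNA was not lowest in the library of its own siRNA. The ovarian somatic markers tj, fs(1)Yb, Fas3, zfh1, piwi and vret were all detected, but not at the same levels. The transcription factor gene tj was at 110 FPKM in siMi-2 and 109 in sipiwi, fs(1)Yb at 51.2 and 70.2, Fas3 at 4.51 and 9.12, vret at 17.8 and 42.5, and zfh1 at 9.23 and 2.51. Markers of other cells were also present, and their part in the results was not tested. The 5 germ cell markers measured went both ways. The gene aub was at 8.06 FPKM in siMi-2 and 0.45 in sipiwi, vas at 2.66 and 0.30, and AGO3 at 1.04 and 0.51. In contrast, bam was at 3.27 and 4.95. These 5 markers added up to 15 FPKM in siMi-2, 6.30 in sipiwi, 5.73 in the library labelled siRpd3 and 3.20 in siGFP, with osk at 0 reads in siMi-2. The 4 blood cell (hemocyte) markers added up to 2.31, 0.74, 10.4 and 0.11 FPKM in the same order of libraries, with Hml at 0 reads in siMi-2, sipiwi and siGFP. The 3 muscle markers added up to 64.6 FPKM in siMi-2, 56.2 in sipiwi, 351 in the library labelled siRpd3 and 30.3 in siGFP, most of it from the actin gene Act57B, at 55.2, 52.5, 342 and 27.8 FPKM. The 3 neuron markers added up to 1.77, 1.22, 3.27 and 1.03 FPKM in that order. In such bulk samples, fewer cells of a type and less RNA per cell cannot be told apart.

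Against sipiwi, siMi-2 had 954 genes more than 2-fold higher (12% of those tested) and 834 more than 2-fold lower (10.5%). Ratios were taken on the log2 scale after 0.1 was added to each FPKM, and so understate how far low genes differ. The median log2 ratio of all genes was -0.18. When libraries were first brought to the same median gene, that median became 0.11, with 1264 genes higher and 377 lower, so that higher genes made up 77.0% of all genes beyond 2-fold with that scaling and 53.4% without. Medians of gene groups that lie just under 0 take the other sign with it. Each ratio has an exact 95% interval (Clopper-Pearson), computed on whole reads recovered from the FPKM values. The intervals compare 2 libraries, not the conditions, and cover counting error only, because 1 library per condition holds no variation between samples. They can be too narrow even for that, because PCR reads are not independent molecules. The interval lay wholly beyond 2-fold for 784 of the 954 higher and 566 of the 834 lower genes. At the threshold, dob was just counted, at 27.4 FPKM in siMi-2 and 13.7 in sipiwi, and CG10165 just not, at 29.4 and 14.6. On the lower side nmd was just counted, at 27.0 FPKM in siMi-2 and 54.2 in sipiwi, and asRNA:ASTR just not, at 3.2 and 6.5. At the minimum level, CG11902 just entered, with a mean of 1.0 FPKM and a log2 ratio of 1.17, and tim just stayed out, with a mean of 0.999 FPKM and a log2 ratio of 0.03.

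**Figure D1:**
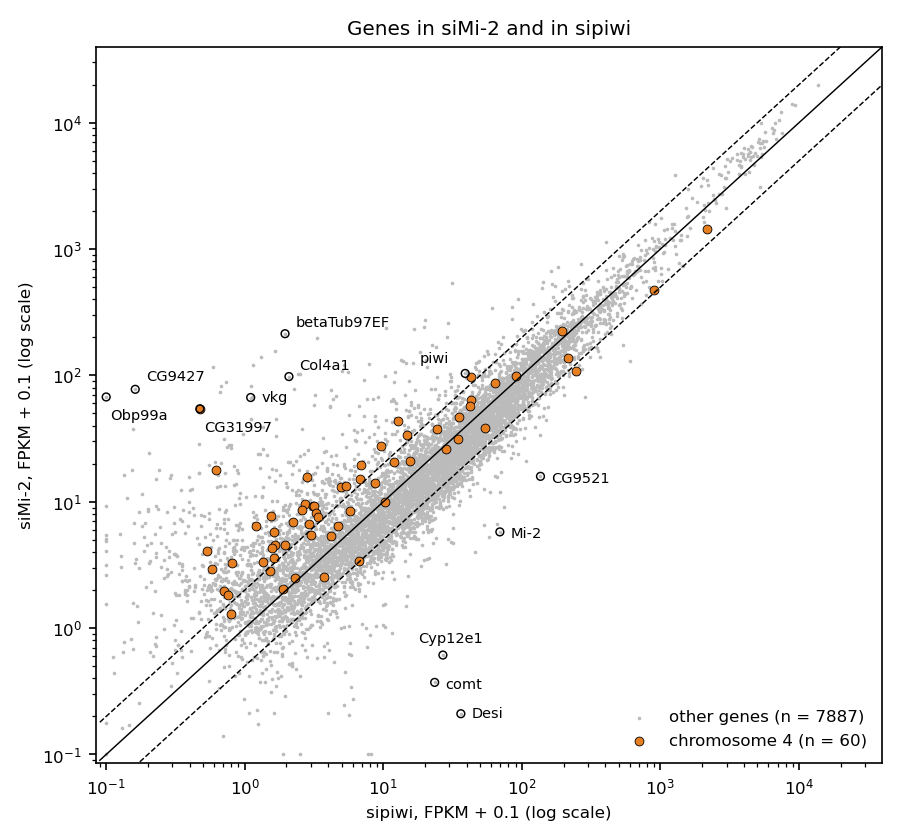
Level of each of the 7947 genes in siMi-2 (y axis) and in sipiwi (x axis), both as FPKM + 0.1 on a log scale, 1 point per gene. The solid line marks equal levels and the dashed lines 2-fold differences; orange points are the 60 genes of chromosome 4, of which 32 lie above the upper dashed line and 1 below the lower.

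As deposited, siGFP lay nearer to sipiwi for most of the higher genes, and on either side for the lower ones. Among the 954 higher genes, siGFP was nearer to sipiwi for 819 and nearer to siMi-2 for 135. Their median level was 7.43 FPKM in siMi-2, 1.55 in sipiwi and 1.8 in siGFP. Of these genes, 744 were more than 2-fold above siGFP in siMi-2, while 136 were more than 2-fold below siGFP in sipiwi. The lower genes were divided: siGFP was nearer to sipiwi for 327 and nearer to siMi-2 for 507. Their median level was 6.60 FPKM in siMi-2, 17.5 in sipiwi and 9.30 in siGFP. More than 2-fold above siGFP in sipiwi were 283 of them, and more than 2-fold below siGFP in siMi-2 were 173. The 2 ratios to siGFP share that library, and over all genes tested 15.7% were more than 2-fold above siGFP in siMi-2 and 11.4% in sipiwi, against 3.44% more than 2-fold below it in siMi-2 and 2.54% in sipiwi. Over all genes tested, siGFP was nearer to sipiwi for 51.7%. The contrast depended on the scale: siGFP was nearer to sipiwi for 85.8% of the higher and 39.2% of the lower genes as deposited, for 68.4% and 58.9% with each library brought to its median gene, and for 71.7% and 60.4% relative to the 200 genes nearest in length.

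The 3 genes with the highest ratios, Obp99a, CG9427 and gnu, were near 0 in both sipiwi and siGFP. They reached the minimum mean only through siMi-2, so that they had to be higher there than in sipiwi. Obp99a (chromosome 3R, 29671657 to 29672334, dm6), which encodes an odorant-binding protein, was at 67.4 FPKM in siMi-2, 0 in sipiwi, 3.40 in the library labelled siRpd3 and 0.19 in siGFP. With 1424 reads in siMi-2 and none in sipiwi, it was at least 501-fold higher, taking 3 reads in sipiwi as the limit that a count of 0 allows. CG9427 had 2261 reads in siMi-2 and 2 in sipiwi, or 77.5 against 0.06 FPKM, a ratio of 1249 with an interval of 345 to 10323. CG9498, CG30154 and obst-E, a chitin-binding protein gene, likewise had 2 reads each in sipiwi, against 883, 447 and 640 reads in siMi-2. These too reached the minimum only through siMi-2. The gene gnu, whose product activates the PNG kinase of the oocyte-to-embryo transition, was at 37.5 FPKM in siMi-2, 0.06 in sipiwi, 0.33 in the library labelled siRpd3 and 0.12 in siGFP. The kinase gene itself, png, was chosen after its values were seen: it was at 121 FPKM in siMi-2, 5.14 in sipiwi, 5.50 in the library labelled siRpd3 and 11.6 in siGFP (log2 ratio 4.53). Both gnu and png stood highest in siMi-2.

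Several strongly higher genes reached levels of 50 to 214 FPKM. The beta-tubulin gene betaTub97EF was at 214 FPKM in siMi-2, 1.85 in sipiwi, 47.3 in the library labelled siRpd3 and 0.86 in siGFP (log2 ratio 6.77, interval 6.53 to 7.03). Arpc3B, which encodes a subunit of the actin-nucleating Arp2/3 complex, was at 121, 1.05, 2.87 and 0.10 FPKM in the same order of libraries (6.71, interval 6.23 to 7.23). CG5080 was at 156 FPKM in siMi-2, 1.57 in sipiwi, 15.8 in the library labelled siRpd3 and 2.39 in siGFP (6.55). Only for betaTub97EF among these was the library labelled siRpd3 above 20 FPKM. The other genes among the 15 highest were CG14984, Kaz1-ORFB, CG12177, CG31997, CG15211 and PGRP-SA, with log2 ratios between 6.73 and 7.62. Of these, CG31997 and CG15211 reached the minimum only through siMi-2, so that they had to be higher. Kaz1-ORFB is annotated over the same stretch as Kaz1-ORFA, and CG15211 overlaps the edge of Ant2, so that the reads of these genes may be shared with their partners.

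**Figure D2:**
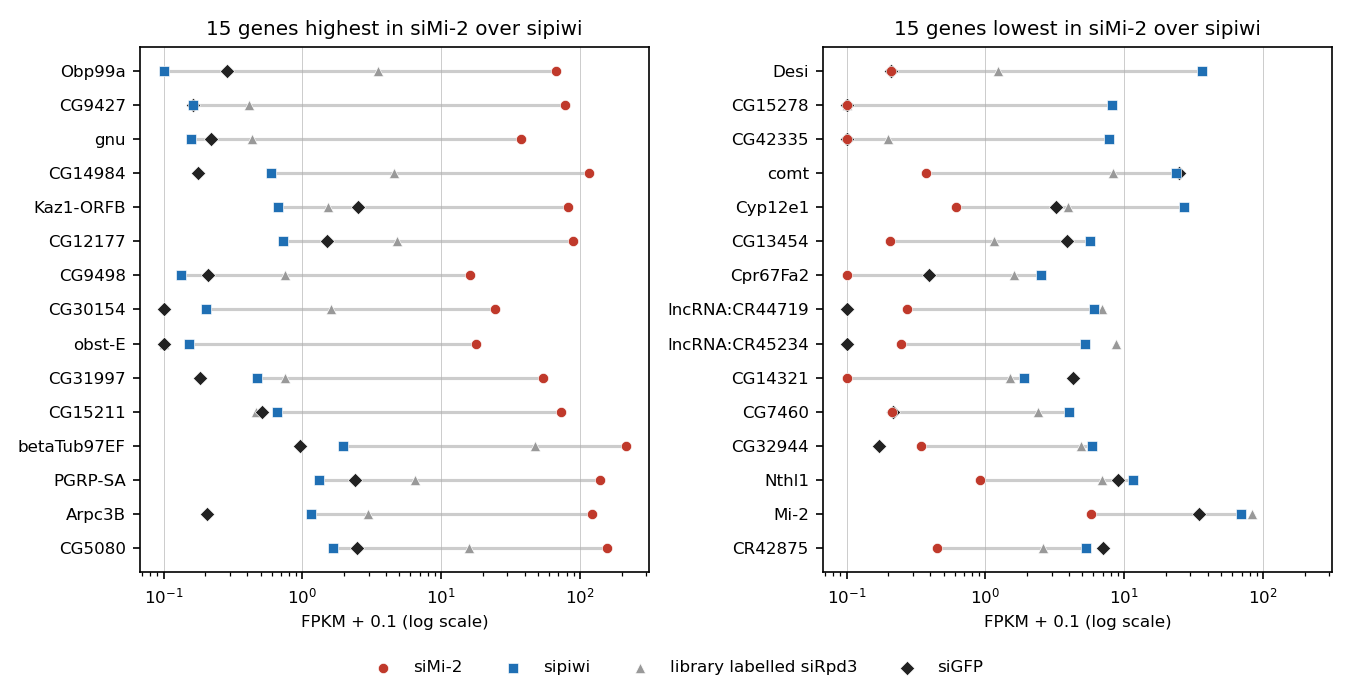
FPKM + 0.1 (log scale) in siMi-2, sipiwi, the library labelled siRpd3 and siGFP for the 15 genes at the top of the ratio (left) and the 15 at its bottom (right), 1 point per library; the grey bar joins siMi-2 and sipiwi. On the left siGFP lies at the sipiwi end of the bar, as for Obp99a; on the right it lies at the siMi-2 end for some genes, as for Desi, and at the sipiwi end for others, as for comt.

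Among the lowest genes, siGFP was near siMi-2 for some and near sipiwi for others. In several, the RNA was abundant in sipiwi and nearly absent in siMi-2 and siGFP. Desi (chromosome 3R, 10779569 to 10780825, dm6) was at 0.11 FPKM in siMi-2, 36.2 in sipiwi, 1.13 in the library labelled siRpd3 and 0.11 in siGFP (log2 ratio -7.43, interval -8.13 to -6.57). CG15278 had 0 reads in siMi-2 and 368 in sipiwi, and CG42335 had 0 and 814; they were at least 125-fold and 258-fold lower, and both were at 0 FPKM in siGFP too. The uncharacterised genes CG32944 and CG7460 and the noncoding RNAs lncRNA:CR45234 and lncRNA:CR44719 were between 3.87 and 5.93 FPKM in sipiwi and at most 0.24 in siMi-2 and 0.12 in siGFP. Those 4 were also between 2.30 and 8.62 FPKM in the library labelled siRpd3. Desi, CG15278, CG42335 and CG7460 reached the minimum mean only through sipiwi, so that they had to be lower in siMi-2.

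In others, the RNA was present in siGFP and sipiwi and scarce in siMi-2. The gene comt (chromosome X, 13259021 to 13262488, dm6), which encodes the vesicle fusion ATPase NSF, was at 0.27 FPKM in siMi-2, 23.4 in sipiwi, 8.24 in the library labelled siRpd3 and 24.9 in siGFP (log2 ratio -5.98, interval -6.38 to -5.58). Nthl1, a DNA glycosylase gene of base excision repair, was at 0.82, 11.4, 6.77 and 8.95 FPKM in the same order of libraries (-3.65, interval -4.09 to -3.23). CG13454, CG14321 and the pseudogene CR42875 also lay between 3.74 and 6.91 FPKM in siGFP and at most 0.35 in siMi-2. Among genes with a mean of at least 10 FPKM, ecd, which is needed for ecdysone production and splicing, was at 5.21 FPKM in siMi-2, 57.5 in sipiwi, 61.1 in the library labelled siRpd3 and 48.6 in siGFP (-3.44). Mccc1, a subunit gene of the leucine-degrading enzyme methylcrotonoyl-CoA carboxylase, was at 3.12, 28.2, 13.2 and 21.9 FPKM in that order (-3.14), and CG1827 at 1.40, 14.5, 11.6 and 26.9 FPKM (-3.28). The siMi-2 library was the lowest of the 4 for each of these genes.

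The remaining genes among the lowest had siGFP at varied positions. The cytochrome P450 gene Cyp12e1 was at 0.51 FPKM in siMi-2, 26.8 in sipiwi, 3.82 in the library labelled siRpd3 and 3.14 in siGFP (log2 ratio -5.46, interval -5.92 to -5.01). The cuticle protein gene Cpr67Fa2 had 0 reads in siMi-2 and 52 in sipiwi, at least 16.5-fold lower, with 0.29 FPKM in siGFP. It reached the minimum mean only through sipiwi, so that it had to be lower. CG9521 was at 15.8 FPKM in siMi-2, 136 in sipiwi, 0.70 in the library labelled siRpd3 and 418 in siGFP (-3.10), and was thus below siGFP in all 3 knockdowns. Ir7g, of the ionotropic receptor family, was at 3.91 FPKM in siMi-2, 45.6 in sipiwi, 4.23 in the library labelled siRpd3 and 5.70 in siGFP (-3.51). TM4SF, a tetraspanin gene, was at 6.61, 66.0, 11.1 and 12.8 FPKM in that order (-3.30), and the chitinase-like Idgf2 at 6.43, 53.5, 34.9 and 11.5 FPKM (-3.04). CG31642 was at 0.51 FPKM in siMi-2, 5.73 in sipiwi, 32.9 in the library labelled siRpd3 and 4.89 in siGFP (-3.25). In the annotation CG9521 overlaps Flo2, CG31642 stai, CG1827 clos, Mccc1 faf, ecd CG13807 and Idgf2 CG5888, so that reads of these pairs may be shared.

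Among 41 lists of genes with a shared role, those for extracellular matrix, immunity and cuticle held single genes with very high ratios. Collagen IV is the main collagen of basement membranes, and both of its chains were higher in siMi-2: vkg was at 66.8 FPKM in siMi-2, 1.0 in sipiwi, 3.67 in the library labelled siRpd3 and 1.55 in siGFP (log2 ratio 5.92, interval 5.75 to 6.09), and Col4a1 at 97.8 FPKM in siMi-2, 1.98 in sipiwi, 5.06 in the library labelled siRpd3 and 2.2 in siGFP (5.55, interval 5.43 to 5.69). These genes lie head to head on chromosome 2L, vkg at 5012144 to 5028191 and Col4a1 at 5029609 to 5037279 (dm6). The collagen-binding SPARC and the integrin scb were also higher, at 1.37 and 1.81, whereas Pxn, a peroxidase that cross-links collagen IV, was at 1.42 FPKM in siMi-2, 9.80 in sipiwi, 4.59 in the library labelled siRpd3 and 1.31 in siGFP (-2.70). Of 18 genes of integrins and basement membrane, 4 were higher and 3 lower, with a median of -0.14. In the immune list, 3 genes that encode peptidoglycan recognition proteins were higher: PGRP-SA, a receptor of the Toll pathway, was at 140 FPKM in siMi-2 and 1.22 in sipiwi, PGRP-LB, an amidase that dampens the Imd pathway, at 77.4 and 2.19, and PGRP-SC2 at 17.8 and 0.14. Their siGFP levels were 2.29, 3.89 and 0.29 FPKM. The transcription factors of these pathways, Rel, Dif and dl, lay between -0.84 and 0.52. Of the 22 genes listed for cuticle and chitin, 5 reached the minimum level, and 1 of them, Cpr, encodes cytochrome P450 reductase and is no cuticle gene. Of the others, obst-E, Cht7 and Cht2 were higher and Cda5 lower, but obst-E and Cht7, like PGRP-SC2, reached the minimum only through siMi-2, so that they had to be higher and counts over these lists say little. Of the 7 hemocyte genes vkg, Col4a1 and srp were higher and Pxn lower, while the blood cell marker Hml was at 0 reads in both libraries. Over all genes tested, 12% were higher and 10.5% lower. The part of other cells in these values was not tested.

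Of the 32 neuronal genes listed, only 6 reached the minimum level, and they are given singly. Ddc, the dopa decarboxylase that makes dopamine and serotonin, was at 34.5 FPKM in siMi-2, 0.87 in sipiwi, 7.49 in the library labelled siRpd3 and 1.57 in siGFP (log2 ratio 5.15, interval 4.85 to 5.46). The synaptic complexin gene cpx was at 4.44, 0.10, 0.31 and 0.11 FPKM in that order of libraries (4.52). The tyrosine hydroxylase gene ple, Snap25 and Syx1A were at 2.29, 1.69 and 1.17, and elav at 0.63. The only receptor for an aminergic transmitter that reached the minimum level, 5-HT2A, was at 5.45 FPKM in siMi-2 and 0.20 in sipiwi (4.22). The minimum is a mean over the 4 libraries, and cpx and 5-HT2A reached it only through siMi-2, so that they had to be higher, while ple reached it only through the library labelled siRpd3, with 0.55 FPKM in siMi-2 and 0.03 in sipiwi. The direction of those that passed therefore says little about neuronal genes. Below the minimum the listed genes lay on either side: futsch was at 1.37 FPKM in siMi-2 and 0.07 in sipiwi (3.09) and Syt1 at 0.21 and 0.02 (1.37), whereas Shab was at 0.05 and 0.24 (-1.19), nSyb at 0.03 and 0.15 (-0.94) and eag at 0.46 and 0.70 (-0.51).

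**Figure D3:**
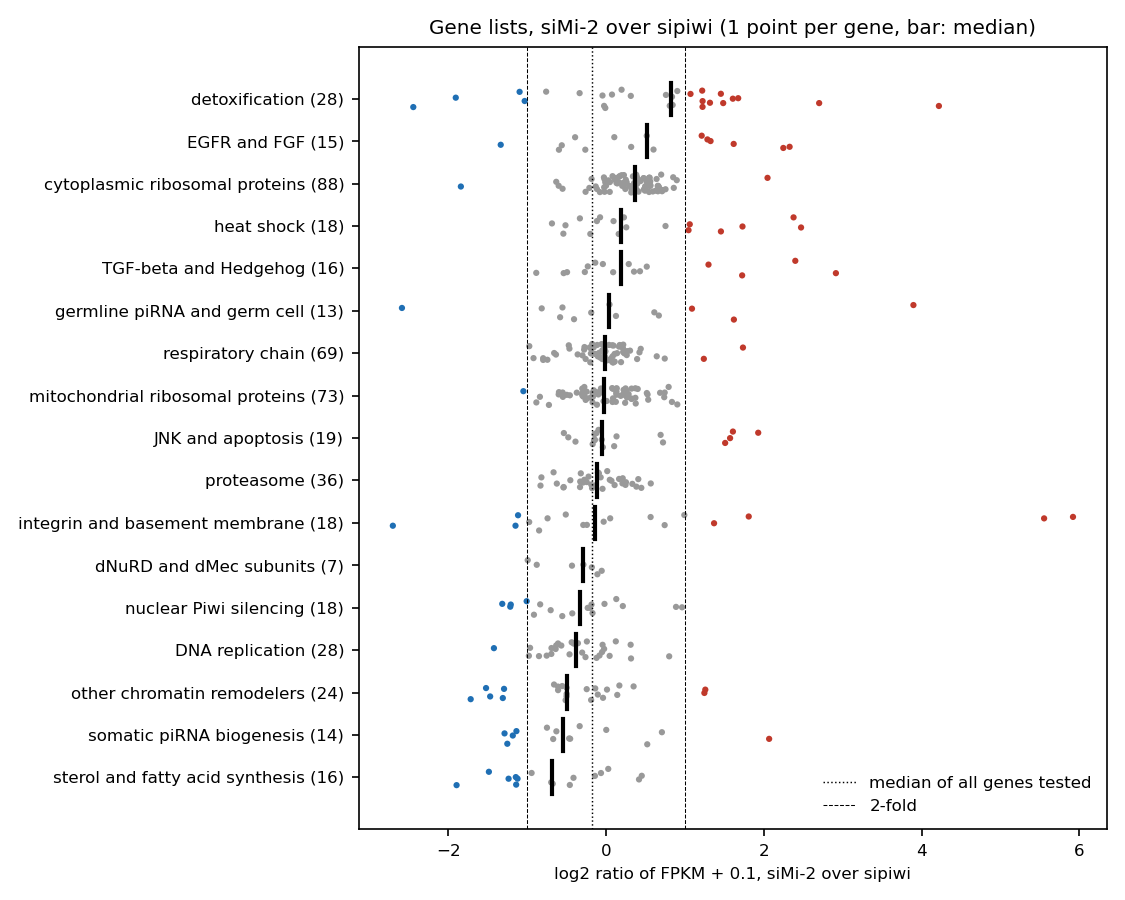
Log2 ratio of siMi-2 over sipiwi for each gene (1 point per gene) of 17 lists, ordered by their medians (black bars), with the number of genes tested in brackets; dashed lines mark 2-fold and the dotted line the median of all genes at -0.18. The list medians run from 0.82 for 28 genes of detoxification to -0.69 for 16 genes of sterol and fatty acid synthesis.

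Genes of the piRNA pathway that passed 2-fold were mostly lower in siMi-2, a direction that did not hold with libraries brought to the same median gene. Beside the counts below, 12% of all genes tested were higher and 10.5% lower, with a median of -0.18. Of 18 genes that act with Piwi in nuclear silencing, 0 were higher and 4 lower, with a median of -0.33. With that scaling 2 were higher and 1 lower. The H3K9 methyltransferase gene egg was at 12.4 FPKM in siMi-2, 29.0 in sipiwi, 33.2 in the library labelled siRpd3 and 17.3 in siGFP (log2 ratio -1.22, interval -1.30 to -1.14). The other lower members were Lhr, which encodes a heterochromatin protein, at -1.32, the SUMO-activating subunit Uba2 at -1.21 and the corepressor CoRest at -1.01. Of the proteins that bind Piwi on its targets, Panx was at 0.89, nxf2 at -0.91 and arx at -0.19. Of 14 genes of somatic piRNA production, 1 was higher and 4 lower, with a median of -0.55, and the median-gene scaling left 1 higher and 0 lower. SoYb, a Tudor-domain gene, was at 1.94 FPKM in siMi-2, 0.39 in sipiwi, 2.23 in the library labelled siRpd3 and 1.49 in siGFP (2.07). The lower members were shu (-1.29), the Tudor-domain gene vret (-1.25), squ (-1.18) and the endonuclease gene zuc (-1.14). For vret the levels were 17.8 FPKM in siMi-2, 42.5 in sipiwi, 25.2 in the library labelled siRpd3 and 43.9 in siGFP, so that siMi-2 was the lowest of the 4.

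Germline genes of the pathway took both directions. The germline Piwi-family gene aub was at 8.06 FPKM in siMi-2, 0.45 in sipiwi, 1.98 in the library labelled siRpd3 and 0.33 in siGFP (log2 ratio 3.90, interval 3.54 to 4.26). Rhino, Deadlock and Cutoff form the complex that licenses germline piRNA clusters. Their genes differed: del was at 3.13 FPKM in siMi-2 and 0.95 in sipiwi (1.62), cuff at 1.67 and 0.73 (1.09), and rhi at 0.32 and 2.41 (-2.59), with siGFP at 2.69, 0.55 and 2.79 FPKM. Of the 13 germline genes tested, 3 were higher and 1 lower, with a median of 0.04, beside 12% higher and 10.5% lower over all genes tested. Of these, aub reached the minimum level only through siMi-2, so that it had to be higher. The germ cell gene vas stayed below the minimum level, with 219 reads in siMi-2, 26 in sipiwi, 32 in the library labelled siRpd3 and 2 in siGFP, and osk was at 0, 10, 4 and 0 reads. Whether germ cells took part in these values was not tested. Of 6 testis genes, tomb was higher, at 25.9 FPKM in siMi-2 and 1.26 in sipiwi, and of 3 fat body and yolk genes, Yp3, at 4.23 and 0.73. Like aub, Yp3 reached the minimum level only through siMi-2 and had to be higher. The ribosomal protein paralogs that are mainly expressed in the ovary went opposite ways, RpS5b at 671 FPKM in siMi-2 and 162 in sipiwi (2.05) and RpS19b at 24.1 and 86.8 (-1.84).

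Subunits of the complexes that hold Mi-2 stayed within 2-fold, as did 6159 of all 7947 genes tested. All 7 partners tested, MEP-1, HDAC1, Caf1-55, MTA1-like, MBD-like, simj and CDK2AP1, lay between -0.99 for HDAC1 and -0.06 for simj, with a median of -0.29. MEP-1 was at 27.0 FPKM in siMi-2, 29.2 in sipiwi, 79.5 in the library labelled siRpd3 and 13.9 in siGFP (log2 ratio -0.11). Over all genes tested, 12% were higher and 10.5% lower, which stands beside the counts that follow. Of 24 genes of other remodelers, 2 were higher and 5 lower, with a median of -0.50. The lower members were mor, at 31.6 FPKM in siMi-2, 104 in sipiwi, 94.4 in the library labelled siRpd3 and 44.0 in siGFP (-1.72), together with polybromo, Bap170 and osa, which like mor encode SWI/SNF subunits, and Chd1, the CHD-family relative of Mi-2 (-1.52). The core SWI/SNF ATPase gene brm was at -0.56. The higher members were kis, another CHD-family gene (1.25), and E(bx), the large subunit of NURF (1.26). Of 15 Hox and Polycomb-group genes, pho, Psc and Su(z)2 were higher and Su(z)12 and Scm lower, but Su(z)2 reached the minimum level only through siMi-2 and had to be higher. Of 13 genes of l(3)mbt and Myb-MuvB complexes, 0 were higher and mip130, l(3)mbt and CoRest lower. The median-gene scaling left 2 remodelers higher and 5 lower.

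Lists of signaling genes differed in the share of higher genes, which was 12% over all genes tested, with 10.5% lower. It was 1 of 14 (7.14%) for Wnt, 2 of 16 (12.5%) for Hippo, 2 of 13 (15.4%) for Notch and 6 of 15 (40.0%) for EGFR and FGF genes. In the EGFR and FGF list 6 of 15 were higher and 1 lower. The ligand genes vn and grk were at 2.33 and 1.32, the ETS factors pnt and aop at 1.28 and 1.21, and the feedback genes edl and sty at 2.25 and 1.62. The receptor gene Egfr was at 7.81 FPKM in siMi-2, 19.9 in sipiwi, 19.0 in the library labelled siRpd3 and 9.92 in siGFP (-1.34). In the TGF-beta and Hedgehog list 4 of 16 were higher and 0 lower: the ligand hh was at 55.4 FPKM in siMi-2, 16.7 in sipiwi, 48.5 in the library labelled siRpd3 and 15.5 in siGFP (1.73), its effector ci at 1.30, the activin-type ligand mav at 2.91 and the repressor of Dpp targets brk at 2.40. The genes ci and mav lie on chromosome 4. In the JNK and apoptosis list 4 of 19 were higher, namely the cell death activator rpr, the JNK phosphatase puc and the matrix metalloproteases Mmp1 and Mmp2, and 0 were lower. Stat92E, chinmo and zfh1 of 10 JAK/STAT genes were higher, as were fz3 of 14 Wnt genes, crb and sd of 16 Hippo genes, and neur and E(spl)malpha-BFM of 13 Notch genes. Lower were dco of the Hippo list and E(spl)mgamma-HLH of the Notch list. Of 15 ecdysone genes, the steroid hydroxylase gene sad was at 13.0 FPKM in siMi-2 and 0.53 in sipiwi (4.37) and ImpL2 was higher, whereas Cyp18a1, which inactivates ecdysone, and usp, whose product pairs with EcR in the ecdysone receptor, were lower. The genes brk, mav, rpr and sad reached the minimum level only through siMi-2, so that they had to be higher. Counts over their lists therefore say less about direction.

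Epithelial genes went both ways, as did all genes tested, of which 12% were higher and 10.5% lower. The shares higher and lower were 23.5% and 11.8% in the follicle cell list and 10.5% and 26.3% for septate junctions and adhesion. For muscle genes both were 12.5%. Of 17 genes of the somatic gonad and follicle cells, zfh1, hh, emc and pnt were higher and Egfr and Fas3 lower. Of 19 genes of septate junctions and adhesion, vari and Fas1 were higher and 5 lower, among them the E-cadherin gene shg, at 2.67 FPKM in siMi-2, 6.70 in sipiwi, 11 in the library labelled siRpd3 and 2.75 in siGFP (-1.29), and Ten-a (-1.55). Of 4 chorion and vitelline membrane genes, Cp18 and psd were higher, although psd reached the minimum level only through siMi-2 and so had to be higher. The eggshell gene dec was at 9.07 FPKM in siMi-2, 73.9 in sipiwi, 115 in the library labelled siRpd3 and 21.4 in siGFP (-3.01, interval -3.09 to -2.93). Of 8 muscle genes, Mlc2 was higher and Prm lower.

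Genes of lipid synthesis were the list with the lowest median. Of 16 genes of sterol and fatty acid synthesis, 0 were higher and 6 lower, with a median of -0.69, and the median-gene scaling left 2 lower. Among all genes tested, without that scaling, 12% were higher and 10.5% lower, with a median of -0.18. The rate-limiting enzyme of fatty acid synthesis, acetyl-CoA carboxylase (ACC), was at 9.28 FPKM in siMi-2, 34.8 in sipiwi, 35.3 in the library labelled siRpd3 and 17.9 in siGFP (-1.90, interval -1.96 to -1.83). AcCoAS, which makes acetyl-CoA, was at 47.1, 132, 53.2 and 198 FPKM in that order (-1.49). SREBP, the transcription factor that drives the pathway, was at 102, 241, 164 and 191 FPKM (-1.24), and its escort SCAP, fatty acid synthase FASN1 and the lipid droplet protein Lsd-2 were at -1.14, -1.12 and -1.14. For all 6 lower genes siMi-2 was the lowest of the 4 libraries. Pgi and Ald1 were lower among 14 glycolysis genes and 0 were higher, with a median of 0.34.

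Of 28 detoxification genes, 11 (39.3%) were higher and 4 (14.3%) lower, with a median of 0.82. The shares over all genes tested, 12% higher and 10.5% lower, stand beside this count and that of heat shock genes. The epoxide hydrolase Jheh3 was at 16.7 FPKM in siMi-2, 0.80 in sipiwi, 2.14 in the library labelled siRpd3 and 1.38 in siGFP (log2 ratio 4.22). For other members siGFP was near siMi-2 and sipiwi lower: Jheh1 was at 526, 165, 203 and 345 FPKM in that order (1.68), and the glutathione transferase GstD5 at 26.2, 8.54, 6.93 and 23.2 (1.61). The median of the list over siGFP was -0.08 in siMi-2 and -0.17 in sipiwi. The P450 genes were divided, with Cyp4e2 at 2.70 and Cyp6a2 at 1.22, against Cyp6a9 at -1.91 and Cyp6a8 at -2.44. In the heat shock list 6 of 18 were higher and 0 lower, and the 6 were the copies of Hsp70, from 1.05 for Hsp70Bb to 2.47 for Hsp70Ab. Near-identical copies share reads, so that the 6 are not separate observations, and Hsp70Ab was at 63.1 FPKM in siMi-2, 11.3 in sipiwi, 464 in the library labelled siRpd3 and 9.17 in siGFP. The small heat shock genes Hsp22, Hsp23, Hsp26 and Hsp27 lay between -0.69 and 0.75.

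Genes that all cells use were mostly within 2-fold. This held for 86 of 88 cytoplasmic ribosomal protein genes (median 0.36), 72 of 73 mitochondrial ones (-0.03), 67 of 69 of the respiratory chain (-0.01), all 36 of the proteasome (-0.12), 27 of 28 of DNA replication (-0.38), 21 of 22 of the cell cycle (-0.16) and 16 of 18 of the unfolded protein response (-0.58). Beside these values, 6159 of all 7947 genes tested were within 2-fold, with a median of -0.18. Among the 1038 genes with at least 100 FPKM in siGFP, only 2.70% were higher and 3.28% lower. Few genes beyond 2-fold is thus not particular to these lists.

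Chromosome 4 set the knockdowns apart more than any other arm. This small, largely heterochromatic chromosome carries H3K9me3 and HP1 over most of its active genes. Of its 60 genes tested, 32 (53.3%) passed 2-fold as higher in siMi-2 than in sipiwi and 1, Rnf11, as lower, and the median log2 ratio was 1.16. On the other arms the share of higher genes lay between 9.09% on X and 12.4% on 2L, that of lower genes between 9.72% and 11.9%, and the median between -0.21 and -0.15. Against siGFP the median of the 60 genes was 0.83 in siMi-2, -0.20 in sipiwi and 0.52 in the library labelled siRpd3, while that of all genes was 0.13, 0.29 and 0.69. Of the 53 protein-coding genes among them 30 were higher. The count of higher genes was 35 with the median-gene scaling, 35 with each ratio taken against the 200 genes closest in length, and 23 where each gene was represented by its top transcript alone.

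The chromosome 4 genes varied among themselves. CG31997 was at 54.3 FPKM in siMi-2, 0.37 in sipiwi, 0.65 in the library labelled siRpd3 and 0.08 in siGFP (log2 ratio 6.84, interval 6.11 to 7.61). The next was yellow-h, at 17.9, 0.52, 0.49 and 0.69 FPKM in that order (4.85), followed by mav, at 3.95, 0.44, 1.06 and 0.73 FPKM (2.91). CG31997, yellow-h and mav reached the minimum mean only through siMi-2, so that they had to be higher. For most others the difference was smaller and shared by genes of many functions: Cals, a synaptic cadherin, was at 2.46, the translation factor eIF4G1 at 1.74, the lysosomal transcription factor Mitf at 1.64, the plasma membrane calcium pump PMCA at 1.31, the Polycomb-group DNA-binding gene pho at 1.17 and the semaphorin receptor PlexA at 1.17. In pho the levels were 33.5 FPKM in siMi-2, 14.8 in sipiwi, 18.6 in the library labelled siRpd3 and 22 in siGFP, so that siGFP lay between. The most highly expressed genes of the chromosome were not among the higher ones: RpS3A was at 1440 FPKM in siMi-2 and 2184 in sipiwi (-0.60), ATPsynbeta at 477 and 904 (-0.92) and ND-49 at 137 and 216 (-0.66). Rnf11 was at 108 FPKM in siMi-2, 246 in sipiwi, 90.0 in the library labelled siRpd3 and 39.8 in siGFP (-1.19).

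Genes of chromosome 4 were longer and lower expressed than most, with a median transcript of 2828 nt and a median siGFP level of 4.35 FPKM, against 1811 nt and 13.4 FPKM on the other arms. The share of higher genes was therefore set beside that of all genes of like length or level, in classes that each held few genes of chromosome 4. Of the 16 with transcripts of 3000 to 5000 nt, 14 (87.5%) were higher, against 12.3% of all 1334 genes of that length. Shorter classes held 1 of 7 (14.3%) at 600 to 1000 nt, against 11.2% of all genes, 2 of 8 at 1000 to 1500 nt and 1 of 4 at 1500 to 2000 nt. Of the 21 with 3 to 10 FPKM in siGFP, 13 (61.9%) were higher, against 11.5% of all 1649 genes at that level. At 10 to 30 FPKM it was 3 of 9 (33.3%), against 4.84% of all genes, at 30 to 100 FPKM 1 of 7 (14.3%), against 3.14%, and from 100 FPKM up 0 of 4, against 2.70%. All 60 had more than 20 annotated TE insertions within 50 kb. On the other arms, genes with that many insertions nearby were higher in 47 of 221 cases (21.3%) and lower in 14 (6.33%), whereas genes with 0 insertions nearby were higher in 10.2% of 2002 cases and lower in 9.94%. Genes with 1 to 5 and with 6 to 20 insertions nearby lay between, at 11.5% and 12.7% higher. Control levels differed as well, with a median siGFP level of 6.66 FPKM for more than 20 insertions nearby and 14.99 FPKM for 0. A TE insertion within the gene itself was annotated for 538 genes of the other arms, of which 17.7% were higher, against 11.1% of the 7285 without. Those with an insertion had a median transcript of 3323 nt and a median siGFP level of 5.21 FPKM, against 1746 nt and 14.5 FPKM without. These shares by TE insertions were not compared among genes of like length or level, so that a link with the insertions themselves was not tested. The insertions are those of the reference strain, and those of the OSC line can differ.

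**Figure D4:**
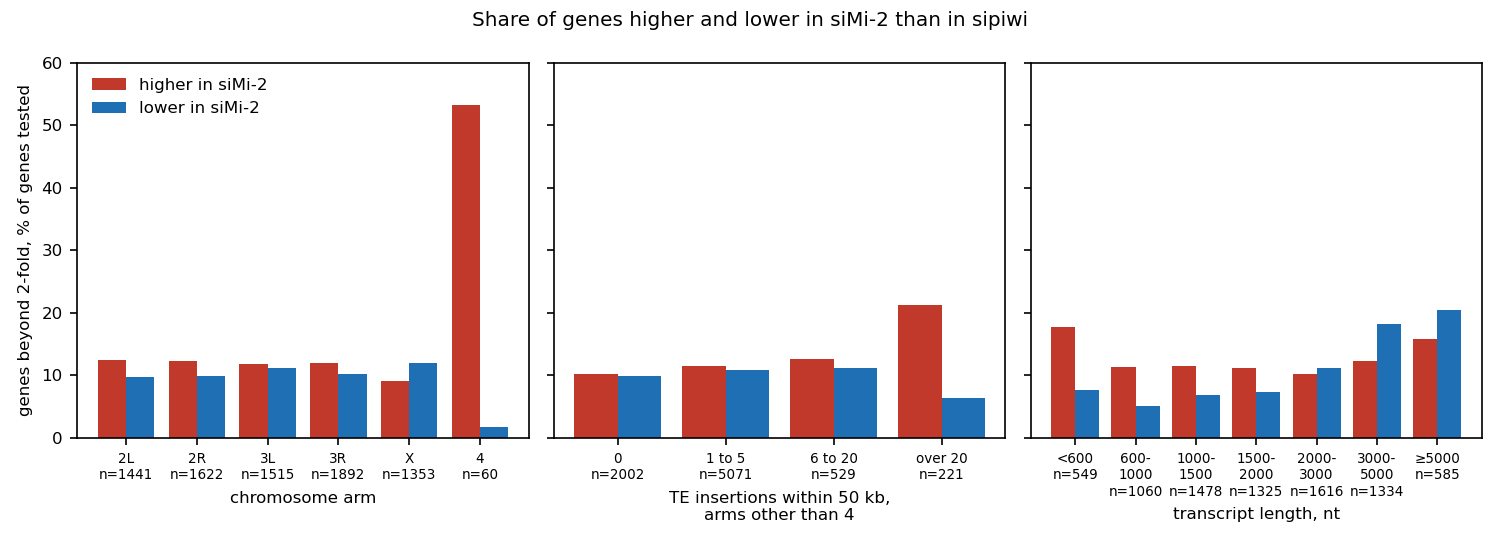
Percentage of the tested genes beyond 2-fold, higher (red) or lower (blue) in siMi-2 than in sipiwi, by chromosome arm (left), by the number of annotated TE insertions within 50 kb on arms other than 4 (middle) and by transcript length (right), with the number of genes under each pair of bars. Chromosome 4 stands at 53.3% higher, and the share of lower genes reaches 20.5% for transcripts of at least 5000 nt.

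Transcript length and control level went with the direction. Lower genes made up 5.0% of the 1060 genes with transcripts of 600 to 1000 nt and 20.5% of the 585 with transcripts of at least 5000 nt, while the share of higher genes was 11.2% and 15.7%. The median log2 ratio was 0.02 and -0.17 in these classes, and -0.39 for 3000 to 5000 nt. Taken against the 200 genes closest in length, 1143 genes were higher and 434 lower. Among 83 genes with less than 0.1 FPKM in siGFP, 60 (72.3%) were higher and 14 lower, among 1736 genes with 10 to 30 FPKM there, 84 (4.84%) were higher and 253 lower, and among 1038 genes with at least 100 FPKM, 28 (2.70%) were higher and 34 lower. Genes with low siGFP values passed the minimum mean only through a library where they were high.

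Small nuclear RNAs, the RNA parts of the spliceosome, were higher as a kind: 16 of 19 passed 2-fold and 0 were lower, with a median of 1.63. Beside this and the counts that follow, 12% of all genes tested were higher and 10.5% lower. Of the 16, snRNA:U6:96Ab, snRNA:U4:39B and snRNA:U5:34A reached the minimum mean only through siMi-2, so that they had to be higher. These RNAs lack poly(A) tails, so that their reads in poly(A) libraries measure what passed the selection. The U2 gene snRNA:U2:34ABb was at 76.8 FPKM in siMi-2, 16.8 in sipiwi, 9.10 in the library labelled siRpd3 and 10.8 in siGFP (log2 ratio 2.18). The U12 gene was at 35.8, 30.6, 16.1 and 5.95 FPKM in that order (0.23), and the 7SK gene snRNA:7SKa at 14.6, 7.81, 3.59 and 3.19 FPKM (0.89). Copies of 1 snRNA are near identical and share reads, and the largest ratio, of snRNA:U6:96Ab, rested on 19 reads in siMi-2 and 2 in sipiwi. Of 49 small nucleolar RNAs, most of which are cut from introns, 4 were higher and 10 lower. Of 140 long noncoding RNAs, 32 (22.9%) were higher and 18 (12.9%) lower. Those at 0 reads in sipiwi included lncRNA:CR43785 with 129 reads in siMi-2, at least 46.3-fold higher, and lncRNA:CR44638 with 81, at least 28.4-fold higher. Both reached the minimum mean only through siMi-2, so that they had to be higher. The same held for lncRNA:CR44691 and lncRNA:CR44552, and among antisense RNAs for asRNA:CR45682 and asRNA:CR43159. Counts of higher noncoding RNAs therefore say less about direction. Of 146 antisense RNAs, 16 were higher and 15 lower. Strand in the counting is not stated in the sources used here, so that reads of an antisense RNA and of the gene it overlaps cannot be told apart.

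Some neighbouring genes went together. Among tested genes in chromosomal order, 11 runs of at least 4 were higher and 4 were lower. On chromosome 4 (1147466 to 1271759, dm6) the run of 6 was Kif3C, pho, PIP4K, Mitf, Dyrk3 and Cadps, and a second (115074 to 156060) was Ank, anne, lncRNA:CR43956 and CG31997. On 2L (13905645 to 14234126) the run was Ance, an angiotensin-converting enzyme homolog, NimA and NimB2, of the Nimrod family of phagocytosis receptors and their relatives, and Dyrk2; NimB2 was at 16.8 FPKM in siMi-2, 0.62 in sipiwi, 1.96 in the library labelled siRpd3 and 0.57 in siGFP (log2 ratio 4.55). On 3R (15986152 to 16049421) the GATA factor gene srp headed a run with Jhbp4, Jhbp5 and IKKbeta. Among the lower runs, that on X (7864948 to 7886976) held Ir7b, dec, asRNA:CR43615, Ir7f and Ir7g. Ir7f was at 0.93 FPKM in siMi-2, 8.80 in sipiwi, 0.90 in the library labelled siRpd3 and 1.40 in siGFP (-3.10), and Ir7b at 0.62, 3.64, 3.63 and 2.06 FPKM in that order (-2.38), so that each of the 5 was highest in sipiwi or in the library labelled siRpd3.

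On the deposited scale more TEs were higher in siMi-2 than lower, while mdg1 and gypsy were among the lower ones. Beyond 2-fold, 25 of the 100 TEs were higher in siMi-2 (25.0%) and 9 lower (9.0%), and the median log2 ratio was 0.45. The interval lay wholly beyond 2-fold for 18 of the 25 and 8 of the 9. The counts depended on the scale, with 12 higher and 14 lower when libraries were brought to the same median TE. By class, 11 of 39 LTR elements of the gypsy group were higher and 6 lower, 3 of 7 of the Pao group and 3 of 4 of the copia group were higher with 0 lower, 5 of 25 LINE-like elements were higher and 1 lower, and 2 of 21 DNA transposons were higher and 1 lower. Both the highest and the lowest ratio belonged to the gypsy group. Its members accord and rover reached the minimum mean only through siMi-2, so that they had to be higher. Some TEs well above siGFP in sipiwi lay within 2-fold between the knockdowns: mdg3 was at 31.8 FPKM in siMi-2, 27.0 in sipiwi, 53.6 in the library labelled siRpd3 and 5.92 in siGFP (0.24), Quasimodo at 23.8, 17.4, 24.9 and 4.22 (0.45), and GATE at 7.08, 5.23, 6.22 and 1.41 (0.43).

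The 9 TEs lower in siMi-2 were led by mdg1. This LTR retrotransposon, with a consensus of 7480 nt in the recovered lengths, was at 17.0 FPKM in siMi-2, 293 in sipiwi, 23.5 in the library labelled siRpd3 and 3.59 in siGFP (log2 ratio -4.10, interval -4.14 to -4.06). The LTR element gypsy, which encodes an envelope protein, was at 46.2 FPKM in siMi-2, 218 in sipiwi, 252 in the library labelled siRpd3 and 8.89 in siGFP (-2.24, interval -2.26 to -2.21). In both, siMi-2 lay between siGFP and sipiwi. The element 412 was at 2.05 FPKM in siMi-2, 12 in sipiwi, 10.8 in the library labelled siRpd3 and 0.40 in siGFP (-2.49), and Tabor at 4.13, 17.0, 5.50 and 0.82 FPKM in that order (-2.01). NOF, carried in foldback elements, had 16 reads in siMi-2 and 200 in sipiwi, or 0.10 and 1.21 FPKM (-2.70), and gtwin, mini-me and 297 were at -1.53, -1.36 and -1.04. For 8 of the 9 the order was siGFP lowest, then siMi-2, then sipiwi, the exception being TART, a telomeric LINE, at 15 FPKM in siMi-2, 33.9 in sipiwi, 50.1 in the library labelled siRpd3 and 28.6 in siGFP (-1.17). Just short of 2-fold were Stalker2 (-0.99), aurora-element (-0.98) and blood (-0.84), the last at 102 FPKM in siMi-2, 182 in sipiwi, 108 in the library labelled siRpd3 and 9.38 in siGFP. With libraries brought to the same median TE they were among the 14.

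**Figure D5:**
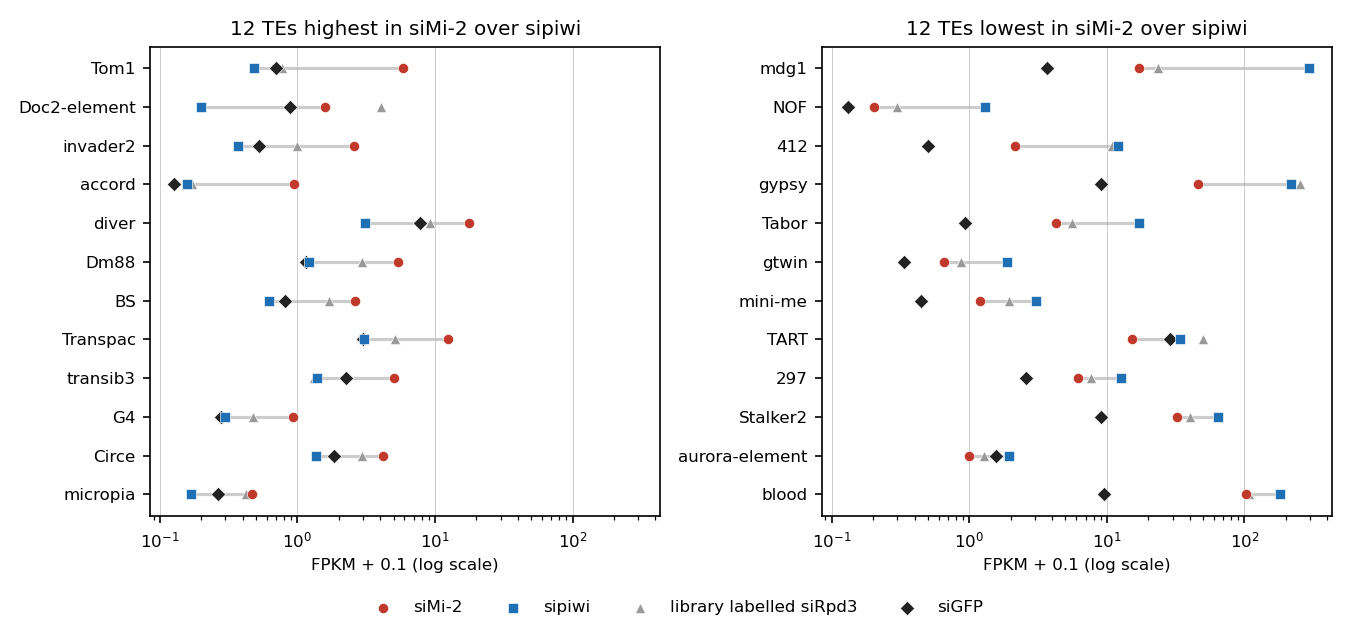
FPKM + 0.1 (log scale) in siMi-2, sipiwi, the library labelled siRpd3 and siGFP for the 12 TEs at the top of the ratio (left) and the 12 at its bottom (right), 1 point per library; the grey bar joins siMi-2 and sipiwi. On the right siGFP lies left of both for mdg1, gypsy, 412 and Tabor, and on the left it lies near the sipiwi end of the bar for most, as for Dm88 and Transpac, and between the knockdowns for diver.

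The 25 TEs higher in siMi-2 behaved otherwise toward siGFP, which was nearer to sipiwi for 19 of them. In sipiwi 0 of the 25 were more than 2-fold above siGFP and 4 were more than 2-fold below it, while in siMi-2 16 were more than 2-fold above. The Pao-group element diver was at 17.6 FPKM in siMi-2, 3.01 in sipiwi, 9.10 in the library labelled siRpd3 and 7.64 in siGFP (log2 ratio 2.51, interval 2.40 to 2.63), so that the knockdowns lay on opposite sides of siGFP. Transpac was at 12.3, 2.97, 5.04 and 2.90 FPKM in that order of libraries (2.01, interval 1.89 to 2.14), and the copia-group element Dm88 at 5.30, 1.11, 2.84 and 1.06 FPKM (2.15). For both of these sipiwi and siGFP lay close together. Tom1 had the largest ratio (3.59, interval 2.58 to 4.64), with 85 reads in siMi-2 and 6 in sipiwi. Doc2-element was at 1.48 FPKM in siMi-2, 0.10 in sipiwi, 3.92 in the library labelled siRpd3 and 0.78 in siGFP (2.99), and invader2 at 2.49, 0.27, 0.89 and 0.42 FPKM in that order (2.80). The others of the highest 12 were accord (2.60), BS (2.08), transib3 (1.85), G4 (1.65), Circe (1.62) and micropia (1.47). Of the 25, accord (0.85 FPKM in siMi-2 and 0.06 in sipiwi) and rover (0.21 and 0.03) reached the minimum mean only through siMi-2. Both therefore had to be higher. ZAM and Idefix, gypsy-group elements with piRNAs from flamenco, were higher too, at 1.35 and 1.34.

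The 3 most abundant TEs by their mean, copia, springer and gypsy12, lay within 2-fold. The element copia was at 5959 FPKM in siMi-2, 4927 in sipiwi, 7300 in the library labelled siRpd3 and 3040 in siGFP (log2 ratio 0.27, interval 0.27 to 0.28), springer at 779, 914, 2279 and 589 FPKM in that order (-0.23), and gypsy12 at 596, 739, 389 and 567 (-0.31). The DNA transposon pogo was at 103 FPKM in siMi-2, 83.0 in sipiwi, 52.5 in the library labelled siRpd3 and 49.3 in siGFP (0.31). At the minimum level Fw3 just entered, with a mean of 0.103 FPKM, and jockey2 just stayed out, at 0.0985 FPKM.

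The gene ex, a Hippo pathway component with a gypsy insertion in OSCs, was at 1.22 FPKM in siMi-2, 0.68 in sipiwi, 3.81 in the library labelled siRpd3 and 0.10 in siGFP (log2 ratio 0.76, interval 0.52 to 1.01). It was thus above siGFP in both knockdowns, within 2-fold of each other. The piRNA factor gene krimp was at 17.3 FPKM in siMi-2, 11.3 in sipiwi, 32.2 in the library labelled siRpd3 and 10.7 in siGFP (0.61, interval 0.50 to 0.72), also within 2-fold.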

How the data were processed

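Poly(A) RNA of OSCs (TruSeq libraries, HiSeq 2500) was measured in 4 libraries, 1 per condition, each taken from its label. The deposited values are FPKM, which the authors calculated per transcript and per TE. The submitters' processing notes name Bowtie2 2.2.4 and the dm6 genome. Strand in the counting is not given in the sources used here, so that overlapping and antisense genes cannot be told apart, and near-identical copies such as Hsp70 share reads. Transcript FPKM were summed per gene (16757 genes, with 98.9% of 35327 entries named by accession from the RefSeq Release 6 table). Coordinates, RNA kinds and TE insertions came from the BDGP6 annotation, the assembly that dm6 denotes.

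Ratios were log2 of siMi-2 over sipiwi with 0.1 added to each FPKM, for genes with a mean of at least 1 and TEs with a mean of at least 0.1, and differences beyond 2-fold were counted. Library depths and whole reads were recovered from the steps of low FPKM values. Over 8895 genes of a single length, between 98.3% and 98.5% of values above 0 came out whole within 0.02 reads. At 1 library per condition no test across conditions was possible and none was run. Where a library had 0 reads, 3 reads were taken as the limit, and a fold is given as a lower bound. The interval procedure was tested on simulated data.

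Named were the genes of the siRNA targets, the 15 highest and 15 lowest genes, the 10 highest and lowest with a mean of at least 10 FPKM, of each list up to 4 genes beyond 2-fold with the largest absolute ratio, the 12 highest and lowest TEs, and ex, krimp, mdg1, gypsy and Tabor; other list members, chromosome 4 genes, neighbours in runs, noncoding RNAs and TEs were picked once their values were known. The members and the 41 gene lists were chosen with earlier results of these data known. The alternatives were other pseudocounts, minimum levels and thresholds, scaling to the median gene or TE, the most expressed transcript of a gene, ratios relative to genes of like length and, chosen after seeing the data, protein-coding genes alone and genes or TEs with more than 3 reads in both libraries. No column was left unmapped to a library. Python 3.11.15 with numpy 2.4.6, scipy 1.17.1, pandas 2.3.3 and matplotlib 3.10.9 was used.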

Additional observations from a re-analysis of the deposited data

Results flagged for a closer look

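Among the genes and TEs examined singly, which were chosen largely for extreme ratios, 12 genes and 1 TE are given here. Over all 7947 genes tested, 66 were more than 2-fold above siGFP in siMi-2 and more than 2-fold below it in sipiwi, and 9 the other way round. In the 12 genes and 1 TE the knockdowns lay more than 2-fold from siGFP on opposite sides of it, a difference that was not tested. Higher in siMi-2 than in sipiwi were Obp99a (log2 ratio 9.40, with 7.88 for siMi-2 and -1.52 for sipiwi over siGFP), Kaz1-ORFB (6.94, with 5.04 and -1.90), CG12177 (6.92, with 5.88 and -1.04) and brk, a repressor of Dpp target genes (2.40, with 1.20 and -1.20). The noncoding RNAs lncRNA:CR43785 (6.54, with 3.79 and -2.75), lncRNA:CR44552 (4.63, with 2.77 and -1.85) and snRNA:U6:96Ab (3.08, with 1.87 and -1.22) went the same way, as did the TE diver (2.51, with 1.20 and -1.32). Obp99a and lncRNA:CR43785 had 0 reads in sipiwi, against 4 and 9 in siGFP, and their log2 values depend on the pseudocount. Reads in sipiwi and siGFP were 2 and 11 for lncRNA:CR44552, and 2 and 5 for snRNA:U6:96Ab. For Obp99a, lncRNA:CR43785, lncRNA:CR44552 and snRNA:U6:96Ab the position of sipiwi below siGFP thus rests on few reads. Lower in siMi-2 were Mi-2 itself (-3.59, with -2.58 for siMi-2 and 1.01 for sipiwi over siGFP), Cyp12e1 (-5.46, with -2.41 and 3.05), Cpr67Fa2 (-4.65, with -1.96 and 2.69), dec (-3.01, with -1.23 and 1.79) and asRNA:CR43615 (-3.03, with -1.82 and 1.21), which overlaps dec. Cpr67Fa2 had 0 reads in siMi-2 and 6 in siGFP, so that the position of siMi-2 below siGFP rests on few reads there too.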

How the results depend on the processing

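All 1146 alternative values of the 176 genes and TEs named by the rules above kept the sign of their log2 ratio. Most of these were chosen for large ratios, which a change of scale could hardly turn, so that this says little. Many other genes and TEs given in the text were outside that set, and ratios near 0 can take the other sign on another scale. Of the counts and medians, 66 stayed close to the values reported and 37 did not, as follows. With a pseudocount of 1 FPKM, siGFP was nearer sipiwi for 88.4% of the higher genes (85.8% as reported), 12 TEs were higher and the TE median was 0.21. A minimum mean of 0.1 FPKM gave 1658 higher genes and a median of -0.11, and one of 5 FPKM gave 453 higher genes, a median of -0.24 and 17 higher genes on chromosome 4. Scaling to the median gene gave 377 lower genes (0 on chromosome 4), a median of 0.11, siGFP nearer sipiwi for 68.4% of the higher and 58.9% of the lower genes (39.2% as reported) and 40 higher TEs; scaling to the median TE gave 12 higher and 14 lower TEs and a median of -0.014. The top transcript gave a median of -0.21 and 2 lower genes on chromosome 4. Ratios against genes of like length gave 434 lower genes, a median of 0.0016 and shares of 71.7% and 60.4%. At 1.5-fold, 1443 genes were higher and 2154 lower (5 on chromosome 4), with a share of 82.7% for the higher, and 43 TEs were higher and 14 lower. At 4-fold, 405 genes were higher (8 on chromosome 4) and 89 lower (0 on chromosome 4), with shares of 89.6% and 56.2%, and 8 TEs were higher and 5 lower. Why these values differ beyond what each setting does by its construction was not tested. Protein-coding genes alone gave 867 higher and 780 lower, and genes with more than 3 reads in both libraries 926 and 824. No paired analysis was possible because each condition has 1 library and the labels give no replicate numbers, and no library could be left out. A search for promoter motifs was not run here. Depth limited genes with few reads, where the interval often reached below 2-fold.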
